A study of Mus musculus with 14 samples.

Results

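The 10 genes described here are ones whose products mark mast cells, basophils and eosinophils, and all 10 were found by symbol among the 52550 genes of the count table. They are Prg2, Prg3 and Epx (eosinophil granule proteins), Cpa3 and Mcpt8 (granule proteases), Fcer1a and Ms4a2 (chains of the high-affinity IgE receptor), Hdc (histamine synthesis), and Il5ra and Il1rl1 (cytokine receptors). Their RNA was measured in 14 libraries of total RNA depleted of ribosomal RNA, from 3 groups of mouse cells. WT HSPCs (n = 4) and Mir139KO HSPCs (n = 4) were bone marrow cells of C57BL/6 mice of 8 to 20 weeks, enriched for hematopoietic stem and progenitor cells with a commercial enrichment set, without or with a genomic deletion of the microRNA gene Mir139. MLL-AF9 cells (n = 6) were WT HSPCs kept overnight with IL-3, IL-6 at 10 ng/mL, GM-CSF at 10 ng/mL and SCF at 20 ng/mL, then given the human leukemia fusion MLL-AF9 by retrovirus. Of these cultures, 3 carried the neo vector, selected on neomycin at 800 µg/mL, and 3 the puro vector, selected on puromycin. All were replated repeatedly in methylcellulose before RNA was taken. The paper describes further expansion of MLL-AF9 cells after replating, in medium with serum and the same 4 cytokines at the same doses. The labels do not say whether the HSPC samples were lysed at once or expanded first, and no library was of cultured HSPCs without MLL-AF9, so that culture and the fusion cannot be told apart. The labels do not say whether replicates came from separate mice or transductions, so p-values measure the spread between these libraries. Mir139 had 0 counts in all 14 libraries, which left the deletion unchecked.

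Mast cells, basophils and eosinophils are granulocytes of type 2 immunity that arise from bone marrow progenitors. IgE bound to its receptor on mast cells and basophils triggers the release of granules that hold histamine and proteases. Eosinophils store toxic cationic proteins and depend on IL-5. The receptor for IL-33, encoded by Il1rl1, is carried by all 3 cell types. The transcription factors GATA1 and GATA2 are required for these lineages, and C/EBP factors and MITF act in parts of them.

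Total counts were 35016668 to 45877994 per library. The HSPC libraries fell into 2 classes by the share of counts assigned to the noncoding RNA gene Gm26917, which was 17 to 21.9% in WT replicates 1 and 2 and Mir139KO replicates 2 and 3, and 32.7 to 35.4% in the other 4. In MLL-AF9 cultures it was 7.55 to 10.4%. Each genotype held 2 libraries of each class. The cultures puro replicate 1 and puro replicate 3 were more alike than any other pair (Pearson r of log2 CPM over genes 0.994), but differed by more than counting noise and were kept as separate libraries. Of the 5 MLL fusion targets listed, Hoxa7, Hoxa9, Hoxa10 and Meis1 were called higher in MLL-AF9 cells than in WT HSPCs. Hoxa5 had 0 counts throughout, as did Irf8, Zfpm1, Lcp2, Ms4a1 and Alas2 of the lists used below. These 6 genes lie wholly inside other annotated genes, where reads may have been dropped, so their 0 does not show absent RNA. Levels below are CPM, the counts of a gene scaled to a common normalized library size, and a floor of 3 counts was 0.0544 to 0.129 CPM.

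All 10 genes were lower in MLL-AF9 cells than in WT HSPCs. Their summed level was 642 to 872 CPM in WT HSPCs, 649 to 923 CPM in Mir139KO HSPCs and 13.2 to 62.4 CPM in MLL-AF9 cells. In edgeR's quasi-likelihood test 10 of the 10 were called lower at an adjusted p under 0.05, against 29.4% of the 17077 genes tested. For 9 of them, all but Ms4a2, the groups also did not overlap, against 24.4% of genes called lower without overlap. The fitted changes had a median log2 fold change of -5.42, and that of all genes tested was 0.14. Cpa3, Fcer1a, Il5ra and Il1rl1 reached the filter of 10 counts only through the HSPC libraries, so their place among the tested genes already required a higher level there. In bulk RNA, fewer cells of a type and less RNA per cell cannot be told apart.

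**Figure D1:**
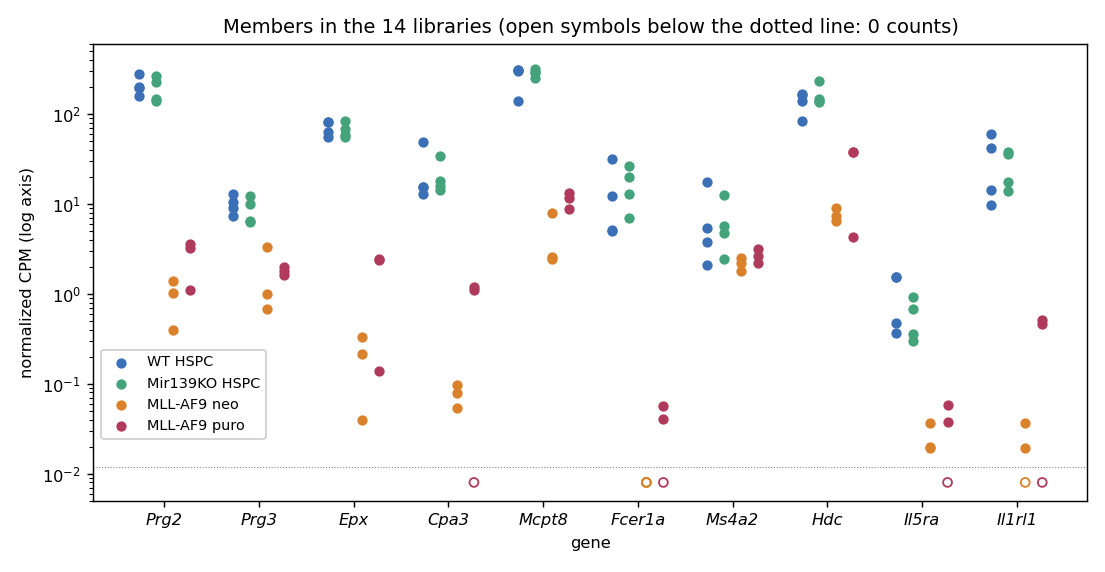
Normalized CPM (log axis) of the 10 genes in 4 WT HSPC, 4 Mir139KO HSPC, 3 MLL-AF9 neo and 3 MLL-AF9 puro libraries, 1 point per library. Open symbols below the dotted line had 0 counts. The HSPC points of both genotypes lie above the MLL-AF9 points for every gene but Ms4a2, whose MLL-AF9 points (1.78 to 3.17 CPM) fall within the range of WT HSPCs (2.07 to 17.5 CPM) or just under it.

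Prg2 encodes the eosinophil major basic protein, which forms the crystalline core of the granule. It stood at 195, 158, 197 and 279 CPM in WT HSPC replicates 1 to 4, at 262, 226, 141 and 147 CPM in Mir139KO HSPCs, and at 0.394 to 3.56 CPM in MLL-AF9 cultures (median 1.25). The 2 highest cultures, puro replicates 1 and 3, were far below the lowest HSPC library. Prg2 fell by 6.87 on the log2 scale against WT HSPCs (SE 0.58, adjusted p = 4.14e-06 by edgeR). Epx, the eosinophil peroxidase, which produces hypobromous acid, stood at 82.1, 55, 62.4 and 81.4 CPM in WT HSPCs and at 83.6, 68.8, 56 and 57.7 CPM in Mir139KO HSPCs. In MLL-AF9 cultures Epx was 0.0394 to 2.43 CPM (median 0.273), with puro replicates 1 and 3 at 2.35 and 2.43 CPM and the other 4 cultures at or under 0.329 CPM. Epx fell by 6.26 (log2, SE 0.95, adjusted p = 0.000196 by edgeR).

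Prg3, a homolog of major basic protein, lies 4582 bases downstream of Prg2 on the same strand of chromosome 2 (Prg2 at 84980461 to 84983632 and Prg3 at 84988215 to 84993886, build GRCm38). Its level was 10.4, 7.3, 9.02 and 12.9 CPM in WT HSPCs, 12.4, 9.89, 6.49 and 6.3 CPM in Mir139KO HSPCs and 0.67 to 3.3 CPM in MLL-AF9 cultures (median 1.72). Its highest culture was neo replicate 3, not puro replicates 1 and 3. Prg3 fell by 2.52 (log2, SE 0.42, adjusted p = 0.000371 by edgeR), less than its neighbour.

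The ratio of these neighbours was nearly constant in HSPCs and far lower in MLL-AF9 cultures. Per base of exon, Prg2 stood 21.3, 24.6, 24.7 and 24.6 times as high as Prg3 in WT HSPC replicates 1 to 4, and 23.9, 25.9, 24.5 and 26.4 times in Mir139KO HSPCs. In neo replicates 1 to 3 the ratio was 1.18, 0.666 and 0.473, and in puro replicates 1 to 3 it was 2.23, 0.633 and 2.21. The log2 ratio, with 0.5 counts added to each gene, was 4.57 ± 0.1 in WT HSPCs (SD, n = 4), against 0.04 ± 0.96 among the MLL-AF9 cultures (SD, n = 6). The difference of -4.53 had p = 0.00952 in a two-sided exact permutation test, the smallest these group sizes allow (adjusted p = 0.0143 over 6 tests). A ratio within a library does not depend on the scaling between libraries. This ratio and the one of Fcer1a to Ms4a2 were chosen after their values were seen, and reads shared between the homologs Prg2 and Prg3 could move it.

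Mcpt8, a protease whose expression among mature cells marks basophils in the mouse, was with Prg2 the highest of the 10 per base of exon. Its level was 140, 308, 305 and 298 CPM in WT HSPCs, 290, 313, 282 and 249 CPM in Mir139KO HSPCs and 2.46 to 13.2 CPM in MLL-AF9 cultures (median 8.39). It fell by 5.08 (log2, SE 0.52, adjusted p = 1.32e-05 by edgeR), yet all 6 cultures kept 127 counts or more. Cpa3, the carboxypeptidase stored in mast cell granules and also expressed by basophils and their progenitors, stood at 12.8, 48.9, 15.4 and 15.3 CPM in WT HSPCs and at 14.4, 34.4, 18.1 and 15.9 CPM in Mir139KO HSPCs. Replicate 2 of each genotype was the highest. In MLL-AF9 cultures Cpa3 had 5, 4 and 3 counts in neo replicates 1 to 3 and 55, 0 and 63 counts in puro replicates 1 to 3. Cpa3 fell by 5.77 (log2, SE 1.07, adjusted p = 0.000705 by edgeR). The change was -5.15 without WT replicate 2 and -6.41 without puro replicate 3.

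The chains of the IgE receptor differed most from each other. Fcer1a encodes the alpha chain, which binds IgE, and stood at 12.1, 31.9, 5.11 and 4.94 CPM in WT HSPCs and at 12.8, 26.6, 20.1 and 7.02 CPM in Mir139KO HSPCs. It had 0 counts in 4 of the 6 MLL-AF9 cultures, with 2 counts in puro replicate 1 and 3 in puro replicate 3. From the summed counts, 2248 in WT HSPCs and 5 in MLL-AF9 cultures, Fcer1a was 946-fold lower (95% exact interval 405 to 2920, counting error only). Against the neo cultures alone, all at 0 counts, the WT mean of 13.5 CPM was at least 237-fold higher than a floor of 3 counts per library. The fitted log2 change over the 6 cultures was -9.49 (SE 0.94, adjusted p = 1.12e-05 by edgeR). It was -8.67 without WT replicate 2 and -10.32 without puro replicate 3.

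Ms4a2 encodes the beta chain, which amplifies the signal of the receptor. Its level was 5.39, 17.5, 2.07 and 3.75 CPM in WT HSPCs, 4.74, 12.7, 5.66 and 2.47 CPM in Mir139KO HSPCs and 1.78 to 3.17 CPM in MLL-AF9 cultures (median 2.37). The MLL-AF9 range overlapped that of both genotypes, and the WT spread rested on replicate 2. Ms4a2 fell by 1.57 (log2, SE 0.5, adjusted p = 0.0158 by edgeR), the smallest change of the 10. Without WT replicate 2 the change was -0.67 with an adjusted p of 0.147 by edgeR, and against the high-share WT libraries alone it was -0.37 with an adjusted p of 0.4. With all counts scaled to the library total it was -1.19, with an adjusted p of 0.111 by edgeR. The call on Ms4a2 thus held in 15 of 22 other settings, and those on the other 9 genes in 22 of 22 each.

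The alpha chain was the more abundant RNA in HSPCs and the beta chain in MLL-AF9 cultures. The log2 ratio of Fcer1a to Ms4a2 per base of exon, with 0.5 counts added, was 1.89 to 2.79 in WT HSPCs, 2.56 to 3.32 in Mir139KO HSPCs and -6.85 to -3.84 in MLL-AF9 cultures. The difference between MLL-AF9 cells and WT HSPCs was -8.04 (two-sided exact permutation test, p = 0.00952, adjusted p = 0.0143 over 6 tests). Because Fcer1a was at 0 to 3 counts in the cultures, the size of that difference depends on the added count, whereas its sign is given by the counts themselves, 92 to 162 for Ms4a2. The third chain of the receptor, Fcer1g, which other Fc receptors share, fell by 1.02 (log2, SE 0.36, adjusted p = 0.0253 by edgeR) and kept 1362 counts or more in every culture.

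Hdc encodes histidine decarboxylase, the enzyme that makes histamine. It stood at 141, 83.4, 165 and 162 CPM in WT HSPCs, at 230, 137, 140 and 145 CPM in Mir139KO HSPCs, and at 6.44, 7.41, 8.97, 37.7, 4.24 and 37.4 CPM in neo replicates 1 to 3 and puro replicates 1 to 3. Puro replicates 1 and 3 were thus over 4 times the next culture and still under every HSPC library. Hdc fell by 3.02 (log2, SE 0.62, adjusted p = 0.00128 by edgeR).

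Il1rl1 encodes ST2, the receptor for IL-33. It stood at 41.9, 60, 9.79 and 14.2 CPM in WT HSPCs and at 13.9, 35.9, 37.6 and 17.7 CPM in Mir139KO HSPCs, with the 4 low-share libraries above the 4 high-share ones. The MLL-AF9 counts were 1, 0 and 2 in neo replicates 1 to 3 and 23, 0 and 27 in puro replicates 1 to 3. Il1rl1 fell by 7.5 (log2, SE 1.13, adjusted p = 0.000183 by edgeR), and the change was -8.22 without puro replicate 3. Il5ra, the alpha chain of the IL-5 receptor, was the lowest of the 10 in HSPCs, at 1.54, 1.53, 0.468 and 0.371 CPM in WT and 0.302, 0.686, 0.928 and 0.359 CPM in Mir139KO. It had 0 to 3 counts in each culture, and from 164 summed counts against 9 it was 38.3-fold lower (95% exact interval 19.7 to 85.4, counting error only). The fitted log2 change of Il5ra was -4.98 (SE 0.65, adjusted p = 7.09e-05 by edgeR).

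Per kilobase of exon, the mean levels in WT HSPCs ran from Mcpt8 (263 ± 82.4 CPM per kilobase, SD, n = 4) and Prg2 (247 ± 60.8) through Epx (25.7 ± 4.98), Hdc (21.6 ± 5.93), Cpa3 (15.2 ± 11.3), Fcer1a (13.6 ± 12.7) and Prg3 (10.4 ± 2.47) to Il1rl1 (4.57 ± 3.45), Ms4a2 (2.55 ± 2.49) and Il5ra (0.273 ± 0.18). Between neighbours in this order, the gaps from Prg2 to Epx and from Prg3 to Il1rl1 exceeded the larger SD of the pair, and all others lay within it. In MLL-AF9 cells the order was Mcpt8 (7.81 ± 4.51 CPM per kilobase, SD, n = 6), Hdc (2.67 ± 2.5), Prg2 (2.12 ± 1.54), Prg3 (1.83 ± 0.968), Ms4a2 (0.861 ± 0.168), Epx (0.335 ± 0.419), Cpa3 (0.277 ± 0.372), Il1rl1 (0.0248 ± 0.0354), Fcer1a (0.0162 ± 0.0255) and Il5ra (0.008 ± 0.00563). Here the gaps from Mcpt8 to Hdc and from Ms4a2 to Epx exceeded the larger SD, that from Prg3 to Ms4a2 was about equal to it, and all others lay within it, so the order from Epx down was not resolved.

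Setting MLL-AF9 cells against Mir139KO HSPCs used the same 6 cultures and is therefore not independent of the one with WT HSPCs. Il5ra had 10 counts in only 2 Mir139KO libraries and was not tested. The other 9 genes were called lower, against 31.9% of the 16953 genes tested. Among them Cpa3, Fcer1a and Il1rl1 again reached the filter of 10 counts only with the HSPC libraries, so being tested already required a higher level there. The log2 changes were -6.78 for Prg2, -2.35 for Prg3, -6.19 for Epx, -5.62 for Cpa3, -5.2 for Mcpt8, -9.79 for Fcer1a, -1.42 for Ms4a2, -3.27 for Hdc and -7.25 for Il1rl1. The highest adjusted p was 0.00702, for Ms4a2, by edgeR. Without Mir139KO replicate 2, the highest of that group, Ms4a2 had a change of -0.84 and an adjusted p of 0.054. Without puro replicate 3, the changes were -6.26 for Cpa3, -10.6 for Fcer1a and -7.96 for Il1rl1. With no filter on low counts Il5ra had a log2 change of -4.17 and an adjusted p of 4.43e-05.

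Mir139KO and WT HSPCs asked whether loss of the microRNA gene alters these genes in cells without the fusion. None of the 10 was called (0 of 10, against 0% of the 15056 genes tested), and none had an unadjusted p under 0.05 in edgeR, DESeq2 or limma-voom. Of all 15056 genes 86 did in edgeR, a far smaller share than the 0.05 expected without any difference. A count of 0 of 10 therefore says little about these genes. The log2 changes ran from -0.78 for Il5ra (95% interval -2.04 to 0.47) to 0.28 for Fcer1a (95% interval -1.19 to 1.74). The narrowest interval, that of Epx, was -0.61 to 0.43, and the widest, that of Ms4a2, was -1.75 to 1.38. Differences of 2-fold were thus outside the interval of Epx but inside those of Cpa3, Fcer1a, Ms4a2, Il5ra and Il1rl1.

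**Figure D2:**
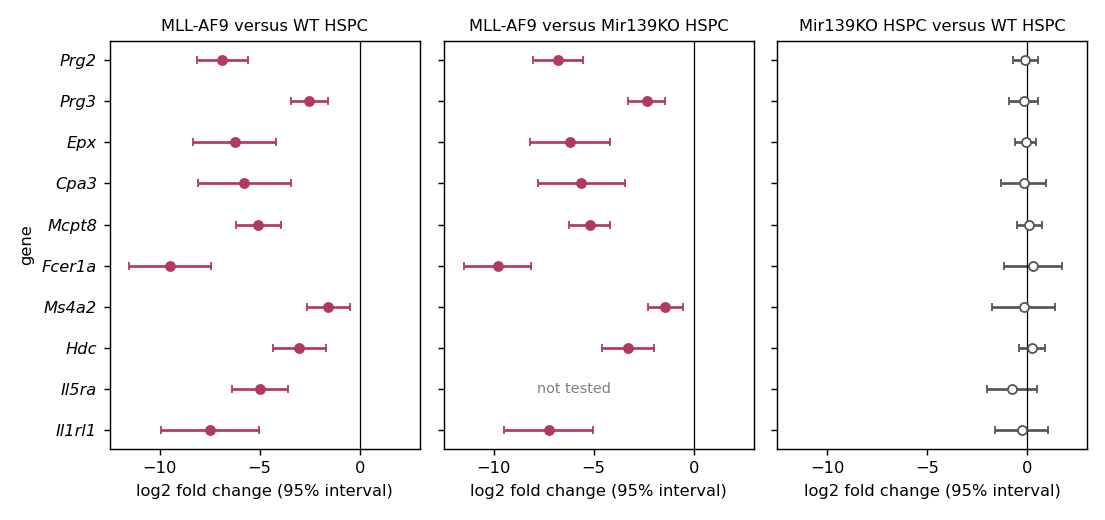
Log2 fold change of each gene with its 95% interval from edgeR, for MLL-AF9 against WT HSPCs, MLL-AF9 against Mir139KO HSPCs and Mir139KO against WT HSPCs. Filled red points were called lower and open points were not called. Fcer1a has the largest change against WT HSPCs (-9.49) and Ms4a2 the smallest (-1.57), and all 10 intervals between the genotypes include 0.

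Part of the spread among HSPC libraries went with their Gm26917 share. The genes Cpa3, Fcer1a, Ms4a2, Il5ra and Il1rl1, whose longest transcripts had a GC content of 37.6 to 43.4%, were lower on average in the 4 high-share than in the 4 low-share libraries, with log2 ratios of the mean CPM of -0.9, -1.61, -1.66, -1.64 and -1.66. Prg2, Prg3, Epx, Mcpt8 and Hdc, with a GC content of 48.3 to 56.3%, had log2 ratios of 0.3, 0.25, 0.12, 0.13 and 0.48. Ms4a2, Il5ra and Il1rl1 were lower without overlap, as were 34.3% of all genes tested, so the split was not particular to these genes. Over the 15038 genes with a GC value, the log2 ratio and the GC content had a Spearman correlation of 0.74, given as a description because genes share the libraries. The median log2 ratio was -1.16 for genes under 44% GC and 0.5 for genes at or over 48%.

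**Figure D3:**
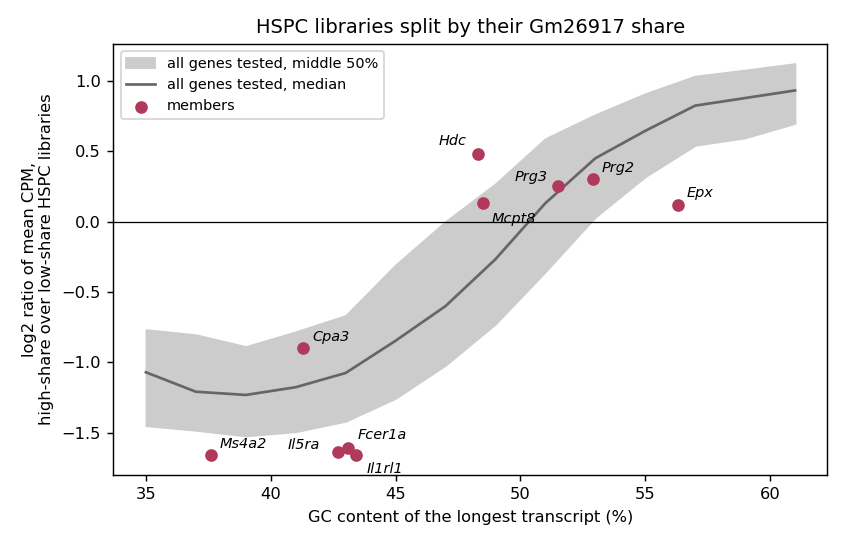
Log2 ratio of mean CPM in the 4 high-share over the 4 low-share HSPC libraries against the GC content of the longest transcript. Points are the 10 genes, the line is the median and the band the middle 50% of all genes tested, in bins of GC content. Genes of low GC content, among them Ms4a2 and Il1rl1 (both -1.66), lie below 0.

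The fall against WT HSPCs was then taken within each class. With WT HSPCs of the low-share class alone all 10 genes were called lower in MLL-AF9 cells, against 20.8% of 18331 genes. With those of the high-share class alone 9 were, all but Ms4a2, against 29.8% of 18244. With counts corrected for GC content 10 were called lower, against 27.2% of 17048. What made the libraries differ was not tested.

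Among the 6 MLL-AF9 cultures, the summed level of these genes was highest in puro replicates 1 and 3. These cultures had the 2 highest values for Prg2, Epx, Cpa3, Mcpt8, Fcer1a, Hdc and Il1rl1, 7 of the 10 genes, for Fcer1a on 2 and 3 counts only. Among genes with enough counts to be tested between the vectors, they did so for 4 of 6 (Prg2, Epx, Mcpt8 and Hdc) and for 19.5% of all 16503. The summed level of the 10 genes was 13.2, 13.4 and 24.4 CPM in neo replicates 1 to 3 and 61, 19.5 and 62.4 CPM in puro replicates 1 to 3. Hdc alone gave 37.7 and 37.4 CPM of the sums in puro replicates 1 and 3. Puro replicate 2 lay within the range of the neo cultures for the sum, for Prg2 and for Prg3, and below it for Hdc and Cpa3. Ms4a2 differed from this pattern, with its highest value, 3.17 CPM, in puro replicate 2.

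**Figure D4:**
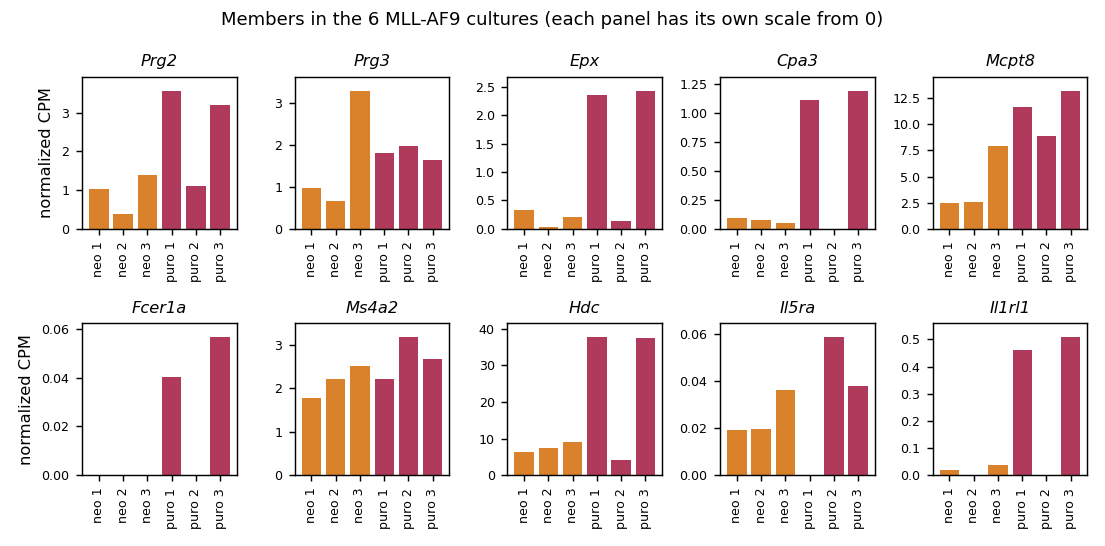
Normalized CPM of each gene in the 3 neo (orange) and 3 puro (red) MLL-AF9 cultures, 1 bar per library, each panel with its own scale from 0. Puro replicates 1 and 3 hold the 2 tallest bars for 7 of the 10 genes, among them Hdc (37.7 and 37.4 CPM), and Ms4a2 is nearly level across the cultures.

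Between the vectors, 6 of the 10 genes had enough counts to be tested and 0 were called, against 0.873% of the genes tested. Epx, Mcpt8 and Hdc had an unadjusted p under 0.05 in edgeR, as did 4 genes in DESeq2 and 1 in limma-voom, and none of these was called. The log2 change from neo to puro was 1.51 for Prg2 (95% interval -0.09 to 3.1), 0.13 for Prg3 (-1.4 to 1.66), 3.08 for Epx (0.27 to 5.88), 1.38 for Mcpt8 (0.11 to 2.65), 0.3 for Ms4a2 (-0.52 to 1.11) and 1.83 for Hdc (0.01 to 3.64). Mcpt8 alone of these had all puro values (11.7, 8.84 and 13.2 CPM) above all neo values (2.46, 2.6 and 7.94 CPM). Without puro replicate 2, the culture low in these genes, Cpa3, Hdc and Il1rl1 were called higher, with log2 changes of 3.9, 2.34 and 4.55, against 3.83% of 17222 genes. That setting leaves puro replicates 1 and 3, the most alike pair, and Cpa3 and Il1rl1 reached 10 counts only in them, so both had to differ to be tested. In a fit of all 14 libraries together Epx was called higher, as were 2.95% of 17994 genes, with a log2 change of 3.05 and an adjusted p of 0.0359 by edgeR.

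Other genes of these lineages were taken from lists. Of 5 further basophil genes 4 had enough counts in MLL-AF9 cells or WT HSPCs and 4 were called lower. Prss34, a basophil serine protease, was the largest of these, at 836 ± 397 CPM in WT HSPCs (SD, n = 4) and 934 ± 240 CPM in Mir139KO HSPCs (SD, n = 4). It had 2, 0, 0, 70, 0 and 97 counts in the cultures, with puro replicates 1 and 3 again the highest, and fell by 10.57 (log2, SE 1.52, adjusted p = 0.000139 by edgeR). Cd200r3, an activating receptor of basophils and mast cells, fell by 4.6 (log2, SE 0.81, adjusted p = 0.000518 by edgeR).

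Of 8 further eosinophil genes 6 were tested and 5 were called lower, against 29.4% of all genes, with a median log2 change of -3.42. Alox15, the 15-lipoxygenase, had a mean of 19.7 ± 5.28 CPM in WT HSPCs (SD, n = 4), against 0.244 ± 0.133 CPM among MLL-AF9 cultures (SD, n = 6), and fell by 6.32 (log2, SE 0.5, adjusted p = 2.42e-06 by edgeR). Ccr3, the eotaxin receptor, had 33 to 188 counts in WT HSPCs and 0 to 7 in the cultures. It fell by 5.6 (log2, SE 0.73, adjusted p = 7.58e-05 by edgeR). The eosinophil ribonuclease genes Ear1, Ear2, Ear6 and Ear10 are near-identical copies whose reads may have been split or dropped, so their values are uncertain.

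Genes that mark mature mast cells were at or near 0 in every group. Cma1, Mcpt1, Mcpt2, Mcpt4, Mcpt9, Tpsab1, Tpsb2, Mrgprb1 and Mrgprb2, which encode chymases, tryptases and mast cell receptors, had 0 to 10 counts in each of the 14 libraries and were not tested. Mcpt and Tps genes are also families of close copies. Of the 5 mast cell granule genes tested, Gzmb and Ndst2 were called lower and Srgn and Slc18a2 higher. Slc18a2, the transporter that loads histamine into granules, rose by 1.35 on the log2 scale (SE 0.35, adjusted p = 0.00568 by edgeR). Ndst2, which sulfates heparin, fell by 2.42 (SE 0.3, adjusted p = 4.78e-05), and Gzmb, granzyme B, fell by 3.21 (SE 1.18, adjusted p = 0.0309), both by edgeR. Gzmb had 0 counts in 4 cultures and 33 and 35 in puro replicates 1 and 3.

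The signalling partners of the IgE receptor were divided. Of 12 listed 11 were tested, 4 were called lower, 2 higher and 5 were not called, with a median log2 change of -0.46. Of all 17077 genes tested, 29.4% were called lower and 5603 higher. Lat, the membrane adaptor that links the receptor to phospholipase C, fell by 3.84 (SE 0.52, adjusted p = 9.03e-05 by edgeR). Gab2, an adaptor of the parallel Fyn pathway, rose by 2.49 (SE 0.3, adjusted p = 3.71e-05 by edgeR), from 64.2 ± 15.3 CPM in WT HSPCs (SD, n = 4) up to 363 ± 80.1 CPM among MLL-AF9 cultures (SD, n = 6).

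The partner chains of Il5ra and Il1rl1 were not called lower. Csf2rb, the beta chain with which Il5ra signals, had 200 to 295 CPM in WT HSPCs and 241 to 548 CPM in MLL-AF9 cells, a log2 change of 0.56 (SE 0.32) that was not called (adjusted p = 0.144 by edgeR). Il1rap, the partner of ST2 and of the IL-1 receptor, rose by 3.27 (log2, SE 0.44, adjusted p = 9.4e-05 by edgeR), from 4.84 ± 2.78 to 47.4 ± 14.8 CPM. Of the 9 genes of this list 4 were called lower, 1 higher and 4 were not called, beside 29.4% lower and 5603 higher among all 17077 tested. Il9r, the IL-9 receptor of mast cells, had only 15 to 29 counts in WT HSPCs and 0 to 3 in the cultures. Il9r fell by 4.13 (SE 0.57, adjusted p = 0.000105 by edgeR), and Kit, the receptor for SCF, by 1.56 (SE 0.31, adjusted p = 0.00111 by edgeR).

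In the list of histamine breakdown, histamine receptors and lipid mediators, 5 of 11 genes tested were called higher, 3 lower and 3 not called. Their median log2 change was 1.15. Of all 17077 genes tested, 5603 were called higher and 29.4% lower. The receptors Hrh1, Hrh2 and Hrh4 had log2 changes of 2.59, -2.64 and -2.67 (adjusted p = 0.00168, 0.0365 and 0.00266 by edgeR). Hnmt, which inactivates histamine by methylation, had 1.03 ± 0.736 CPM in WT HSPCs (SD, n = 4), against 52 ± 32.9 CPM among MLL-AF9 cultures (SD, n = 6), and rose by 5.63 (log2, SE 0.74, adjusted p = 7.58e-05 by edgeR). Aoc1, the diamine oxidase that also degrades histamine, fell by 3.84 (log2, SE 0.57, adjusted p = 0.000168 by edgeR). It had 11 to 24 counts in WT HSPCs and 0 to 3 in the cultures. Because Aoc1 was low and could be tested only through the HSPC libraries, no contrast with Hnmt is drawn. Ptgs2, an inducible cyclooxygenase, rose by 5.19 (SE 0.68, adjusted p = 7.65e-05), and Hpgds and Ptgs1 also rose, by 3.04 and 2.68 (adjusted p = 0.000172 and 0.000102, edgeR). Alox5, Alox5ap and Ltc4s, which make leukotrienes, had log2 changes of 0.54, -0.3 and 1.15 that were not called.

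**Figure D5:**
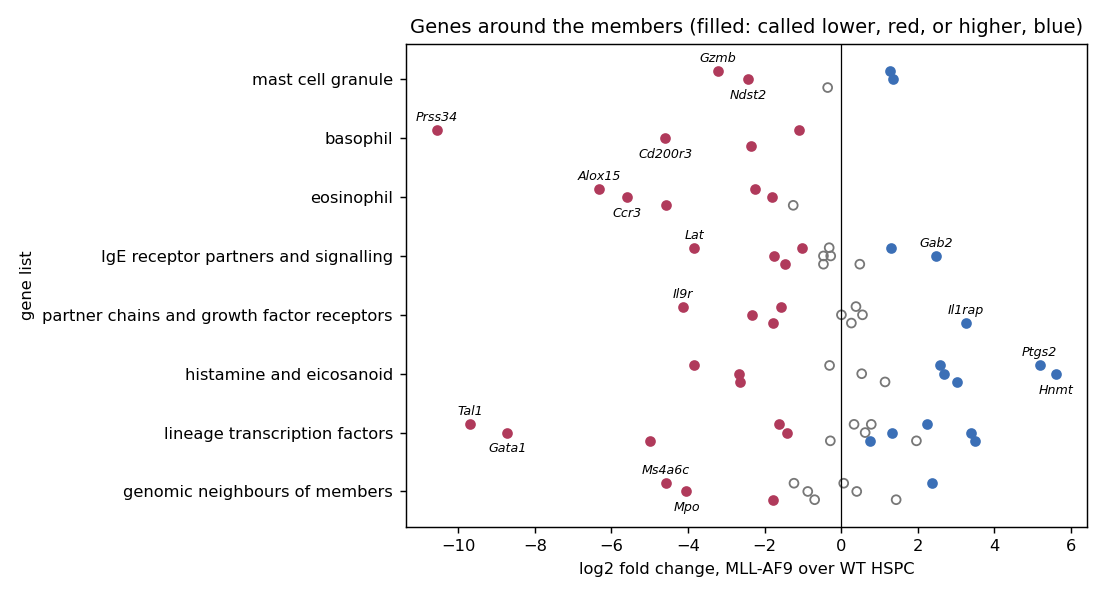
Log2 fold change from WT HSPCs to MLL-AF9 cells of the tested genes in 8 lists around the 10, 1 point per gene, filled red where called lower, filled blue where called higher and open where not called. Basophil and eosinophil genes lie to the left (Prss34 at -10.57, Alox15 at -6.32), whereas the histamine and eicosanoid genes lie on both sides (Hnmt at 5.63).

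Genes that neighbour the 10 on their chromosomes were called lower in 3 of 10 cases and higher in 1, with a median log2 change of -0.78, close to the 29.4% of all genes called lower. Mpo, the neutrophil peroxidase gene, lies near Epx and fell by 4.04 (SE 0.54, adjusted p = 8.46e-05 by edgeR), and Ms4a6c, in the cluster of Ms4a2, fell by 4.58 (SE 0.92, adjusted p = 0.00114 by edgeR). Ms4a3, of the same cluster, had a change of 0.07 and was not called.

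Markers of other blood lineages were lower to different extents. All 9 erythroid, 8 megakaryocyte, 6 B cell and 6 T and NK cell genes tested were called lower. Of 10 neutrophil genes 4 were called lower, and of 8 monocyte and macrophage genes 3 were, shares not far from the 29.4% of all genes. Adgre1 of the latter list was called higher (log2 change 1.47, adjusted p = 0.00629 by edgeR). Against Mir139KO HSPCs 7 of the 10 neutrophil genes were called lower, beside 31.9% of all genes. WT replicate 2 was low in neutrophil granule RNA, with Ltf at 34.9 CPM against 653 to 1550 CPM in the other WT libraries. The summed level of the erythroid genes was 1730 to 2470 CPM in WT HSPCs and 3.58 to 17.1 CPM in MLL-AF9 cells, and that of the B cell genes 1610 to 2550 and 9.83 to 30 CPM. The neutrophil sum was 4540 to 15600 CPM in WT HSPCs and 2450 to 4440 CPM in MLL-AF9 cells. Of the stem and progenitor genes 5 of 7 were called lower. The part of cell composition in the fall of the 10 genes was not tested.

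Among 17 transcription factors of these lineages, 15 were tested, 5 were called lower, 5 higher and 5 not called. Of all 17077 genes tested, 29.4% were called lower and 5603 higher, so these counts were near those of all genes. Gata1 had 76.2 to 220 CPM in WT HSPCs and 0.0586 to 0.774 CPM in MLL-AF9 cells, and fell by 8.72 (log2, SE 0.63, adjusted p = 1.6e-06 by edgeR). Tal1, which acts in complexes with GATA factors, fell by 9.7 (SE 0.72, adjusted p = 1.84e-06 by edgeR), and Gata2 by 5 (SE 0.8, adjusted p = 0.000287 by edgeR). Gata2 stood at 28, 25 and 144 counts in neo replicates 1 to 3. It had 460, 426 and 516 counts in puro replicates 1 to 3. Mcpt8 was split in the same way, with 127, 132 and 438 counts in the neo and 582, 452 and 702 in the puro cultures. Puro replicate 2 was thus with the other puro cultures for Gata2 and Mcpt8 but not for Prg2, Epx, Cpa3, Hdc or Il1rl1. Whether Gata2 bears on any of these genes was not tested. Mitf, the mast cell factor, rose by 3.5 (SE 0.46, adjusted p = 7.86e-05 by edgeR), from 2.97 to 13 CPM in WT HSPCs to 57.5 to 121 CPM in MLL-AF9 cells.

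The promoters of the genes were searched for the letters that GATA factors bind. The RefSeq windows of build GRCm38.p6, 250 bases before to 50 after each start, held 9 of the 10 genes with 10 windows, and Prg2 was not among them. The letters AGATAA or else AGATAG, and likewise TGATAA or else TGATAG, were sought on either strand. They stood in 8 of the 10 windows, those of 7 of the 9 genes, and in 29.8% of the 32851 promoters of the table. The E-box letters CACGTG or else CATGTG, bound by MITF, stood in those of 2 (Prg3 and Fcer1a), and in 20.4% of all promoters. The C/EBP letters TTGCNNAA stood in 2 (Fcer1a and Il1rl1), and in 10.8% of all. Epx and Mcpt8 held none of these letters in their windows. The 250 bases before the start are shown for Il1rl1 and Ms4a2, the genes with the most GATA letters. They are also shown for Cpa3, with 1 match near its start, and for Mcpt8, with none. Of the 2 starts of Il1rl1 only the upstream one is shown. Capitals mark the GATA letters, and each sequence reads 5′ to 3′ on the strand of the gene.
Il1rl1: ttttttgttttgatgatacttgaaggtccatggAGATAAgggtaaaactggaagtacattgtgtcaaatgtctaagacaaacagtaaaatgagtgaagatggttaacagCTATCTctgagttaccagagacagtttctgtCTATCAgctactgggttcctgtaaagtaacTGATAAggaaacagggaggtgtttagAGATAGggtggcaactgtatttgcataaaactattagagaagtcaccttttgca
Ms4a2: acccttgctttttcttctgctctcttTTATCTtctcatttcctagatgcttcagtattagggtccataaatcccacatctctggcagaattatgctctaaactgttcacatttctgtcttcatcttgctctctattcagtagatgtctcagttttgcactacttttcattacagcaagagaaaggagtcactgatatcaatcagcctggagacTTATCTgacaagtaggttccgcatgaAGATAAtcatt
Cpa3: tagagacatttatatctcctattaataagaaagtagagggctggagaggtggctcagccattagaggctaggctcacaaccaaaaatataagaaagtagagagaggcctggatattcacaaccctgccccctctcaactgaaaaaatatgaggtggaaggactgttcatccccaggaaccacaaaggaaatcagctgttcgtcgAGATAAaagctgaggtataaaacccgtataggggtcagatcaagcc
Mcpt8: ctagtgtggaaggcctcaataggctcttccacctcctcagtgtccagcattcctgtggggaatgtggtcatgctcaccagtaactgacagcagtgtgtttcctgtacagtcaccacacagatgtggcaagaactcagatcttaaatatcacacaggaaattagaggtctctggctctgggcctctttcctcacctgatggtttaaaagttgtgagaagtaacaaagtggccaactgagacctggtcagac

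The Il1rl1 window (chr1:40429320-40429569, plus strand) held 5 matches, from 217 to 54 bases before the start. The Ms4a2 window (chr19:11623720-11623969, minus strand) held 3, at 224, 37 and 11 bases before it. That of Cpa3 (chr3:20242182-20242431, minus strand) held 1, at 46 bases before it, and that of Mcpt8 (chr14:56085198-56085447, minus strand) held none. A match of letters is a description of the sequence and not a binding site. The shares among all promoters were not matched for base composition, and no difference from them was tested.

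Likeness across the 8 HSPC libraries was described by the Pearson r of log2 CPM over 8270 genes outside the 10. Hdc was most like Ltb4r1, Dennd3 and Alox5 (r = 0.982, 0.977 and 0.976), of which Alox5 and Ltb4r1 make and sense leukotrienes. Ms4a2 was most like Slc18a2 (0.943), which was also the gene most like Cpa3 (0.882). Mcpt8 was most like Rab38 and Pf4 (0.897 and 0.892), Epx like H2-Aa and H2-Eb1 (0.873 and 0.868), and Prg2 and Prg3 both like Washc3 (0.849 and 0.796). Il1rl1 had the closest neighbours, Dis3, Enpp4 and Twsg1 (0.999, 0.998 and 0.998), Il5ra had Ablim1 (0.984) and Fcer1a had Mmd (0.971). All these r values are the highest picked from 8270 genes over only 8 libraries. High values can arise by such picking alone, so the partners named are not shown to be related. These libraries form 2 classes by Gm26917 share, and for Il1rl1, Il5ra, Ms4a2 and Hdc, whose values separated the classes, the correlations follow that split. Fcer1a also differed between the classes (log2 ratio -1.61), with overlap.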

How the data were processed

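Total RNA depleted of ribosomal RNA was sequenced from 4 WT HSPC, 4 Mir139KO HSPC and 6 MLL-AF9 samples. The authors aligned reads to GRCm38 with STAR 2.5.3e and counted them per gene with featureCounts 1.6.0, and deposited raw counts for 52550 genes; the strand setting is not given in the sources used here. Groups were taken from the sample labels, and the vectors were compared within MLL-AF9 cells.

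Each comparison was fitted in edgeR 4.0.16 (R 4.3.3) with its own samples only, TMM scaling, a minimum of 10 counts and the quasi-likelihood test, with Benjamini-Hochberg adjustment over all genes tested and a threshold of 0.05. CPM used TMM-scaled library sizes. Total counts were 35016668 to 45877994, and 3 counts served as the floor. Floors and exact intervals of summed counts cover counting error only, and intervals of log2 fold changes come from the edgeR fit and include the spread between libraries. Lengths and GC content came from GENCODE M21 (52403 genes matched). Scripts were tested on simulated data. Alternatives were limma-voom 3.58.1, DESeq2 1.42.0, other scalings and filters, a replicate block, GC correction, single vectors, single share classes and leaving out each library.

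The 10 genes and the lists around them were chosen with earlier results of these data known. Context genes were named by rule, the 2 genes of each list with the largest change against WT HSPCs among those called without overlap, and likeness was ranked among genes whose log2 CPM averaged 3 or more. Srgn, Slc18a2, Fcer1g, Csf2rb, Kit, Aoc1, Adgre1, Hpgds, Ptgs1, Alox5, Alox5ap, Ltc4s, Ms4a3, Gata2 and Mitf were named after their values were seen, as were the within-library ratios. So were Hrh1, Hrh2 and Hrh4.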

Additional observations from a re-analysis of the deposited data

Results flagged for a closer look

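Of 30 groups of 4 to 6 libraries examined for a single library far from the rest, 3 held one, and chance alone gives about 1 in 20. Cpa3 stood at 48.9 CPM in WT HSPC replicate 2 and at 12.8 to 15.4 CPM in the other 3, a gap of 0.926 of the group's range. Mcpt8 stood at 140 CPM in WT HSPC replicate 1 and at 298 to 308 CPM in the others, a gap of 0.94. Hdc stood at 230.0 CPM in Mir139KO HSPC replicate 1 and at 137 to 145 CPM in the others, a gap of 0.913. The critical gap for 4 libraries is 0.829. All 3 values lay above every MLL-AF9 culture.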

How the results depend on the processing

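In MLL-AF9 cells against WT HSPCs, 9 of the 10 genes were called lower under each of 22 alternatives, and Ms4a2 under 15. The log2 changes ran from -12.19 to -8.16 for Fcer1a, -10.47 to -6.18 for Il1rl1, -8.43 to -5.39 for Epx and -8.16 to -4.88 for Cpa3. Ms4a2 was not called under limma-voom (-1.18, adjusted p = 0.055), with neo cultures alone (-1.7, adjusted p = 0.0546) or with puro cultures alone (-1.4, adjusted p = 0.109), beside the settings given with its values above. Against Mir139KO HSPCs it was called under 18 of 22. Scaling to total counts moved the median of all genes by 0.55 against WT HSPCs, and all 10 changes stayed negative.

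With the replicate number as a block, 9 of 10 genes were called lower against WT HSPCs (Ms4a2 at -1.26, adjusted p = 0.092 by edgeR), as were 24.8% of all genes, 9 against Mir139KO HSPCs, as were 31.8%, and 0 between the genotypes and between the vectors. Same-numbered libraries did not deviate together throughout, with correlations of -0.012, 0.097, -0.056 and 0.003 against WT HSPCs. Between the genotypes they were -0.631, 0.719, -0.652 and 0.509, negative where the libraries were of different Gm26917 classes and positive where of the same class. These correlations cannot show whether same-numbered libraries share a mouse or a preparation. The numbers were taken as running numbers.

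Between the genotypes 0 of the 10 genes were called under each alternative run, and signs turned for Ms4a2 (limma-voom 0.03, replicate block 0.01, GC correction 0.11, high-share libraries 0.28), Mcpt8 (high-share -0.2), Il1rl1 (high-share 0.36) and Prg2 (low-share 0.06). Leaving out 1 library gave ranges of -0.29 to 0.06 for Prg2, -0.54 to 0.48 for Cpa3, -0.13 to 0.18 for Mcpt8, -0.04 to 1.14 for Fcer1a, -0.75 to 0.75 for Ms4a2 and -0.57 to 0.24 for Il1rl1.

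Between the vectors the number of the 10 called was 1 in a fit of all 14 libraries (Epx, 3.05), and 0 to 3 when 1 culture was left out, with 3 without puro replicate 2 (adjusted p = 0.0142 for Cpa3, 0.00846 for Hdc and 0.032 for Il1rl1). All genes called numbered 144, 761 in the fit of all 14, 990 of 17222 without puro replicate 2, and 5 with puro replicates 1 and 3 summed. Leaving out 1 culture moved Prg3 between -0.25 and 1.12. The causes of these changes were not tested. Counts of 0 to 3 limit Fcer1a and Il5ra in the cultures and Il1rl1 outside puro replicates 1 and 3, where Cpa3 had 0 to 5.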
